A study of Mus musculus with 8 samples.

Results

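The region described here is a 180 kb stretch of mouse chromosome 11 that holds the genes of the CC chemokines Ccl5, Ccl9, Ccl6, Ccl3 and Ccl4. Its members are the accessible regions, or peaks, of the deposited table that end at or after 83320000 and start at or before 83500000 on build mm9, 32 of the 74207 peaks in all. The rule places Ccl5 near 83340000, Ccl3 near 83461000 and Ccl4 near 83476000. These positions are rounded, so distances from them are approximate. RefSeq's gene table, which uses another build, lists the 5 genes in the order Ccl5, Ccl9, Ccl6, Ccl3 and Ccl4, and it was used for names and order only. Whether a peak lies in an exon, an intron or a UTR is not analysed here.

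ATAC-seq, which uses the transposase Tn5 to cut and tag open chromatin, measured accessibility in macrophages grown from bone marrow of wild-type C57Bl/6 mice. The 4 groups were fenoterol at 1 µM for 15 min followed by LPS at 100 ng/mL for 1 h, LPS alone at the same dose and time, fenoterol alone for 15 min, and unstimulated cells. By the mouse numbers in the labels, cells of the same 2 mice went into all 4 groups, which makes 8 libraries. Cells given both agents had the additional 1 h after fenoterol that cells given fenoterol alone did not have, so agent and time cannot be told apart where these groups are compared. All cells were grown before stimulation in the same CMG medium with serum, and no library was made from another cell type. Macrophage markers were not checked here, since the table names no genes.

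CCL3, CCL4 and CCL5 are small secreted proteins that attract monocytes, T cells and natural killer cells. CCL3 and CCL5 bind the receptor CCR1. Macrophages make little of them at rest and secrete large amounts after LPS, a bacterial lipopolysaccharide sensed by Toll-like receptor 4, whose signal reaches DNA mainly through NF-κB, AP-1 and interferon regulatory factors. CCL6 and CCL9 are chemokines of rodents that also act through CCR1 and are made by resting myeloid cells. Fenoterol activates the β2 adrenergic receptor, which raises cyclic AMP and so activates the factor CREB, which binds the DNA element known as CRE.

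RefSeq's promoter table (build GRCm38.p6) holds 3 of the 5 genes, Ccl9, Ccl6 and Ccl3, all on the minus strand. The 250 bases before the start of Ccl3, chr11:83649379-83649628, and of Ccl9, chr11:83578637-83578886, are shown because the rule's Ccl3 position lies beside a member that rose with LPS and because Ccl9 alone held a match to a motif searched. These coordinates cannot be compared with the mm9 positions of the peaks, so no peak is placed in either promoter. Capitals mark motif matches, and bases are counted back from the gene's start.
Ccl3: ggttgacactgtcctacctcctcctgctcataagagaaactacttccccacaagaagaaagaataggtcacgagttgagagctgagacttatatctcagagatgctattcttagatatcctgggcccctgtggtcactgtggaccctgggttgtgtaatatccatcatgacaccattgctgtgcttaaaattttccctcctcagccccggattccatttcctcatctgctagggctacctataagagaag
Ccl9: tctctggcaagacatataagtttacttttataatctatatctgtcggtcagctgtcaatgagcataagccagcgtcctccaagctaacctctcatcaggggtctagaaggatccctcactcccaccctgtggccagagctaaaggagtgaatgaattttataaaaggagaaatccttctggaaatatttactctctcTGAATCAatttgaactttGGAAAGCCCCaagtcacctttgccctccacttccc
The motifs searched on both strands were AP-1 (TGANTCA), CRE (TGACGTCA), its shorter core (TGACG), C/EBP (TTGCNNAA), PU.1 (GAGGAAGT), and the longer NF-κB and ISRE motifs. The Ccl9 sequence held an AP-1 match, at 53 to 47 bases before the start, and an NF-κB match on the other strand, at 35 to 26 bases. Of 32851 mouse promoters of this length, 6.75% held the AP-1 letters and 1.41% the NF-κB letters. The letters of CRE were in 1.55% of promoters, those of the shorter core in 17.8%, of C/EBP in 9.56%, of PU.1 in 2.44% and of ISRE in 2.98%. A full CRE match contains the shorter core. None of these letters were found in the Ccl3 sequence shown, nor in the same stretch of Ccl6, which says nothing about binding of the factors.

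Values are RPKM, reads per kilobase of peak and per 1e6 reads in peaks, scaled between libraries, and each pair of values is mouse 1 and then mouse 2. The unstimulated library of mouse 1 had 1425275 reads in peaks, fewer than the 3164244 to 4040220 of the other libraries. A member held a median of 6 reads in that shallow library and 14 to 31.5 in the others. Peaks without reads carry 1 read in the authors' table, so a value of 1 read is a floor and not evidence of a read. The test across all peaks was limma-trend on log2(scaled RPKM + 4), with Benjamini-Hochberg adjustment over 66786 peaks and a threshold of 0.05. Log2 changes are on that scale, which makes them smaller than the log2 ratio of the levels. A bulk value cannot tell more cells with an open region from more openness per cell. Of the 32 members, 30 passed the filter on low values (a mean of at least 9.62 RPKM over all libraries) and were tested.

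Peaks lay closer together here than along the rest of the chromosome, with a median gap of 2897 bp, against 9294.5 bp over chromosome 11. Their median width of 395 bp was near the 404 bp of all peaks. Levels ranged widely between members. The mean over all libraries was 7.60 RPKM at the lowest member and 51.1 RPKM at the highest, with a median of 17.3 RPKM, against 16.9 RPKM for all peaks. Median group means over the members were 22.3 RPKM with fenoterol + LPS, 19.9 RPKM with LPS, 13.0 RPKM with fenoterol and 14.8 RPKM in unstimulated cells, while all tested peaks had medians of 19.3, 18.7, 18.5 and 18.4 RPKM in the same groups.

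**Figure D1:**
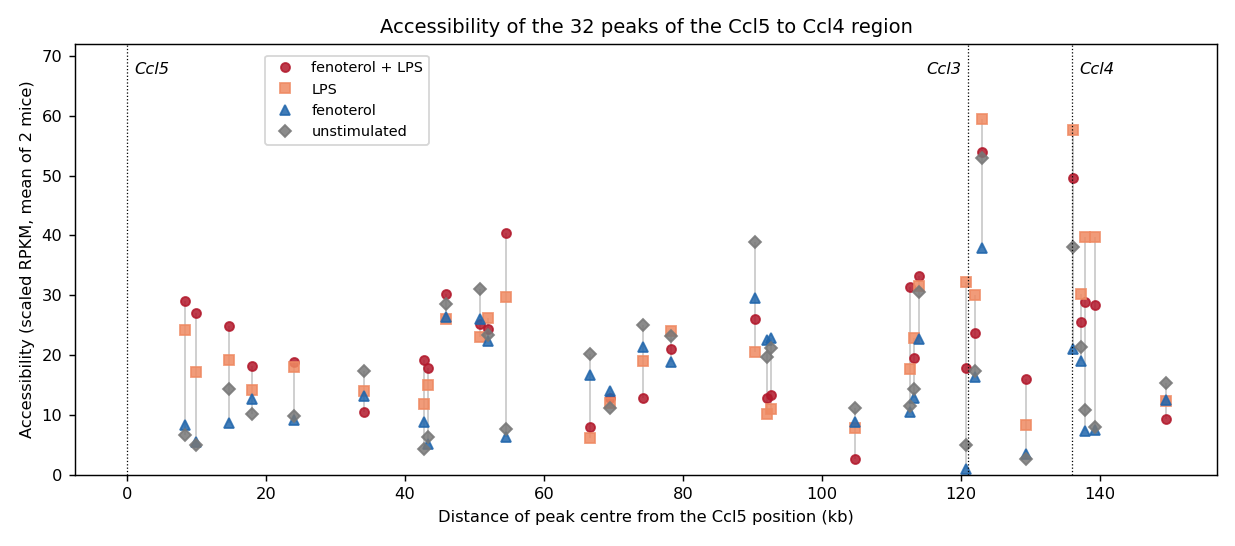
Mean accessibility of each member (vertical axis, scaled RPKM, n = 2 mice per group) along the region (horizontal axis, distance of the peak's centre from the Ccl5 position in kb), with 1 colour and symbol per group and dotted lines at the 3 gene positions given by the rule. Groups with LPS stand above those without at most members on the Ccl5 side and around Ccl3 and Ccl4, and below them at a few members in between.

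After 1 h of LPS, 7 members rose and 3 fell against unstimulated cells, 10 of the 30 tested. Over all tested peaks 10.1% passed the threshold, 6.53% as higher and 3.54% as lower. The risen members lay at the Ccl5 side of the window and around Ccl3 and Ccl4, with 1 more between them. The fallen members all lay between 83406427 and 83432821, in the stretch between Ccl5 and Ccl3. The median log2 change of the 30 members was 0.36, against -0.03 over all tested peaks, with 21 members positive and 9 negative. Counted over all libraries, 12 of the 30 members had all 4 libraries with LPS above all 4 without, against 12.3% of tested peaks, and 3 had all 4 below, against 11.3%. Leaving out 1 LPS library lowered the count of 10 calls to 6 for mouse 1, where 4.09% of all peaks passed, and to 4 for mouse 2, where 3.11% passed.

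The member nearest to Ccl5, which encodes the chemokine also called RANTES, lay at 83347957 to 83348683 (peak12187), 7957 bp from the gene position. No member lay closer to it. It had 28.5 and 29.6 RPKM with fenoterol + LPS, 21.0 and 27.2 RPKM with LPS, 6.05 and 10.6 RPKM with fenoterol and 6.17 and 7.28 RPKM in unstimulated cells. All 4 libraries with LPS lay above all 4 without. The group means were 29.1 ± 0.728, 24.1 ± 4.38, 8.33 ± 3.23 and 6.72 ± 0.787 RPKM (SD, n = 2 mice each), in the same order. The log2 change with LPS was 1.38 (SE 0.26, adjusted p = 0.00177, limma-trend), and with LPS on top of fenoterol it was 1.45 (SE 0.26, adjusted p = 0.00082). The first of these calls was lost without the LPS library of mouse 2, at a log2 change of 1.23 (adjusted p = 0.0651).

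Its neighbour at 83349769 to 83350117 (peak12188) had 20.3 and 33.6 RPKM with fenoterol + LPS, 18.7 and 15.6 RPKM with LPS, 2.70 and 8.12 RPKM with fenoterol and 6.43 and 3.45 RPKM unstimulated. It rose with LPS by a log2 change of 1.26 (SE 0.35, adjusted p = 0.0242) and with LPS after fenoterol by 1.75 (SE 0.35, adjusted p = 0.00173). The groups with LPS did not overlap those without. The call with LPS alone was lost without the LPS library of mouse 1 (adjusted p = 0.189), that of mouse 2 (0.114) or the unstimulated library of mouse 2 (0.0568), and the other call without the fenoterol + LPS library of mouse 2 (0.0789). The call of peak12188 with LPS alone was also lost in a fit without the trend of spread on the mean level. The member at 83354456 to 83354866 (peak12189) passed only the comparison with fenoterol. It had 25.9 and 23.8 RPKM with fenoterol + LPS, 20.01 and 18.5 RPKM with LPS, 6.12 and 11.3 RPKM with fenoterol and 12.7 and 15.8 RPKM unstimulated. Its log2 change was 1.21 with fenoterol present (SE 0.25, adjusted p = 0.0025) and 0.35 without (SE 0.25, adjusted p = 0.429). Without the fenoterol library of mouse 1 the first of these was 0.91 (adjusted p = 0.0531). The difference between these changes, 0.86, did not pass as an interaction (SE 0.36, adjusted p = 0.754).

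Between Ccl5 and Ccl3, the stretch that by RefSeq's order also holds Ccl9 and Ccl6, members went in both directions. The member at 83394355 to 83394676 (peak12198) had 40.9 and 39.9 RPKM with fenoterol + LPS, 28.2 and 31.2 RPKM with LPS, 3.91 and 8.80 RPKM with fenoterol and 9.30 and 5.99 RPKM unstimulated. The lowest library with LPS, at 28.2 RPKM, stood far above the highest without, at 9.30 RPKM. Means were 40.4 ± 0.694 RPKM with fenoterol + LPS, 29.7 ± 2.14 RPKM with LPS, 6.36 ± 3.46 RPKM with fenoterol and 7.64 ± 2.34 RPKM unstimulated (SD, n = 2 mice each). It rose by a log2 change of 1.55 with LPS (SE 0.26, adjusted p = 0.000543) and by 2.14 with LPS after fenoterol (SE 0.26, adjusted p = 1.34e-05).

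A member nearby hardly differed between groups. The next peak on the Ccl5 side, at 83391749 to 83392252, had group means of 24.4, 26.2, 22.3 and 23.3 RPKM with fenoterol + LPS, LPS, fenoterol and no stimulus, a ratio of 1.17 between the highest and the lowest. The peak at 83385731 to 83386186, also on that side, had group means of 30.3, 26.1, 26.4 and 28.5 RPKM in that order. Their ratio of 1.16 was the lowest of all members.

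The 3 members that fell with LPS were lower in both LPS libraries than in both unstimulated ones. None of these calls was kept without the unstimulated library of mouse 1, which is the shallow one, or without the LPS library of mouse 2, in fits that called 7.28% and 3.11% of all peaks. At 83406427 to 83406742 (peak12199) the values were 7.22 and 8.85 RPKM with fenoterol + LPS, 6.29 and 6.02 RPKM with LPS, 13.9 and 19.6 RPKM with fenoterol and 23.7 and 16.8 RPKM unstimulated. All 4 libraries with LPS lay below the other 4, and the log2 change with LPS was -1.24 (SE 0.30, adjusted p = 0.0104). Leaving out the unstimulated library of mouse 1 gave -1.04 (adjusted p = 0.0961), leaving out the LPS library of mouse 2 gave -1.22 (0.0781), and leaving out the LPS library of mouse 1 gave -1.26 (0.0606). The member at 83432533 to 83432821 (peak12205) had 13.2 and 13.6 RPKM with fenoterol + LPS, 9.82 and 12.2 RPKM with LPS, 26.1 and 19.6 RPKM with fenoterol and 20.7 and 21.7 RPKM unstimulated, a log2 change of -0.75 with LPS (SE 0.23, adjusted p = 0.0438). That call was lost in 12 of 19 alternative settings, among them leaving out any 1 of the 8 libraries (adjusted p of 0.0507 to 0.24). The member at 83430059 to 83430514 (peak12203) had 28.3 and 23.9 RPKM with fenoterol + LPS, 26.1 and 14.9 RPKM with LPS, 23.4 and 35.6 RPKM with fenoterol and 41.0 and 37.0 RPKM unstimulated. It fell with LPS by 0.85 on the log2 scale (SE 0.21, adjusted p = 0.0113), while with fenoterol present the libraries with and without LPS overlapped. The call was lost in a fit without the trend of spread on the mean level. Leaving out the unstimulated library of mouse 1 gave -0.78 (adjusted p = 0.0564), and leaving out the LPS library of mouse 2 gave -0.51 (0.248).

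Beside the position given for Ccl3, a member with few reads in cells without LPS rose in both comparisons with LPS. The position is rounded and not stated to be the gene's start. Whether this member or another covers the start of Ccl3 was not determined. The peak at 83460529 to 83460975 (peak12210), 25 bp from the position given for this gene, had 17.6 and 18.1 RPKM with fenoterol + LPS, 28.5 and 35.8 RPKM with LPS, 0.703 and 1.15 RPKM with fenoterol and 5.02 and 4.85 RPKM unstimulated. The 4 groups were fully separated here, in the order LPS, fenoterol + LPS, unstimulated and fenoterol. The reads behind these values were 31 and 29 with fenoterol + LPS, 45 and 59 with LPS, 1 and 2 with fenoterol and 3 and 9 unstimulated, and the single read of the fenoterol library of mouse 1 is at the floor. The log2 change with LPS was 2.01 (SE 0.32, adjusted p = 0.000372). With LPS after fenoterol it was 2.15 (SE 0.32, adjusted p = 0.000127), with the fenoterol libraries at or near the floor (0.85 with a pseudocount of 20 and 3.44 with one of 0.8). Both calls were kept in all 19 alternative settings.

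The next peak, at 83461818 to 83462076 (peak12211) and 818 bp from the Ccl3 position, passed in no comparison. Its means were 23.7 RPKM with fenoterol + LPS, 30.0 RPKM with LPS, 16.3 RPKM with fenoterol and 17.4 RPKM unstimulated. The unstimulated libraries had 8.68 and 26.1 RPKM. Its log2 change with LPS was 0.80 (SE 0.31, adjusted p = 0.118, limma-trend). Another peak near Ccl3 behaved differently from peak12210. The peak at 83462532 to 83463435 (peak12212), 1532 bp from the gene position, had the highest mean of all members. It had 51.8 and 56.2 RPKM with fenoterol + LPS, 58.3 and 60.6 RPKM with LPS, 36.5 and 39.3 RPKM with fenoterol and 55.4 and 50.6 RPKM unstimulated. The fenoterol libraries stood below the other 6. Its log2 change with LPS was 0.16 (SE 0.13, adjusted p = 0.515), which did not pass. With LPS after fenoterol it rose by 0.47 (SE 0.13, adjusted p = 0.0208). This call was lost without any 1 of the fenoterol + LPS or fenoterol libraries, and in a fit without the trend of spread on the mean level.

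**Figure D2:**
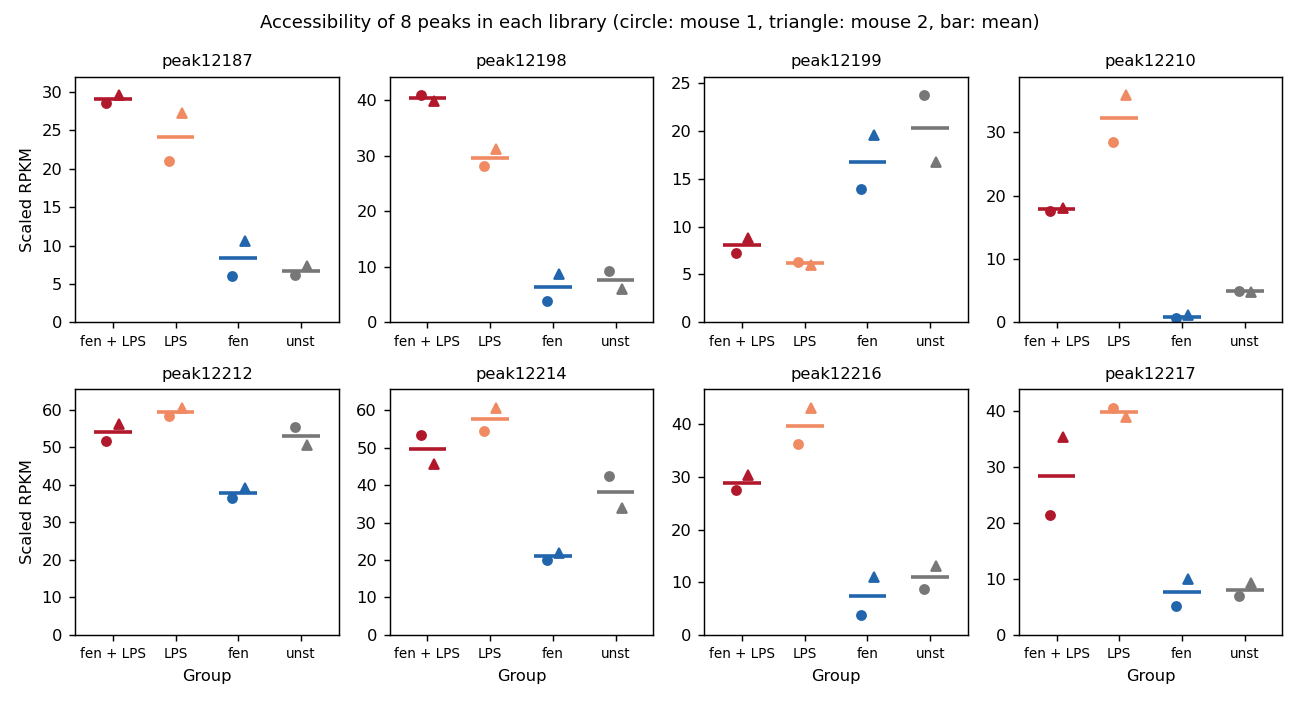
Scaled RPKM (vertical axis) of 8 members in each library, 1 panel per member, with groups along the horizontal axis as fenoterol + LPS, LPS, fenoterol and unstimulated; circles are mouse 1, triangles mouse 2 and bars the group means. Beside the position given for Ccl3, peak12210 is near 0 in the fenoterol libraries (0.703 and 1.15 RPKM) and highest with LPS (28.5 and 35.8 RPKM). Peak12212, also near that position, has 36.5 RPKM or more in every library.

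Ccl4 encodes a chemokine close in sequence to CCL3, and its position in the rule falls inside the peak at 83475775 to 83476337 (peak12214), the member with the second highest mean. The values were 53.5 and 45.6 RPKM with fenoterol + LPS, 54.4 and 60.7 RPKM with LPS, 20.1 and 21.9 RPKM with fenoterol and 42.5 and 33.8 RPKM unstimulated. Means were 49.6 ± 5.56, 57.6 ± 4.50, 21.0 ± 1.30 and 38.1 ± 6.17 RPKM (SD, n = 2 mice each), in the same order. The libraries with LPS lay above all without, and the fenoterol libraries lay below the unstimulated ones. It rose with LPS by a log2 change of 0.55 (SE 0.15, adjusted p = 0.02) and with LPS after fenoterol by 1.10 (SE 0.15, adjusted p = 4.7e-05). The first of these calls was lost without the LPS library of mouse 1, that of mouse 2 or the unstimulated library of mouse 2. It was also lost in a fit without the trend of spread on the mean level. The second was lost in none of the 19 alternative settings.

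Beyond Ccl4, both members that rose had low levels without LPS. At 83477708 to 83477965 (peak12216) the values were 27.5 and 30.4 RPKM with fenoterol + LPS, 36.3 and 43.2 RPKM with LPS, 3.66 and 10.99 RPKM with fenoterol and 8.71 and 13.1 RPKM unstimulated. Its log2 change with LPS was 1.57 (SE 0.27, adjusted p = 0.000755). At 83479020 to 83479564 (peak12217) the values were 21.4 and 35.4 RPKM with fenoterol + LPS, 40.6 and 38.8 RPKM with LPS, 5.19 and 9.91 RPKM with fenoterol and 6.86 and 9.28 RPKM unstimulated. This member had the smallest adjusted p of the window for LPS, with a log2 change of 1.86 (SE 0.26, adjusted p = 0.000111). The libraries with and without LPS did not overlap at either peak.

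**Figure D3:**
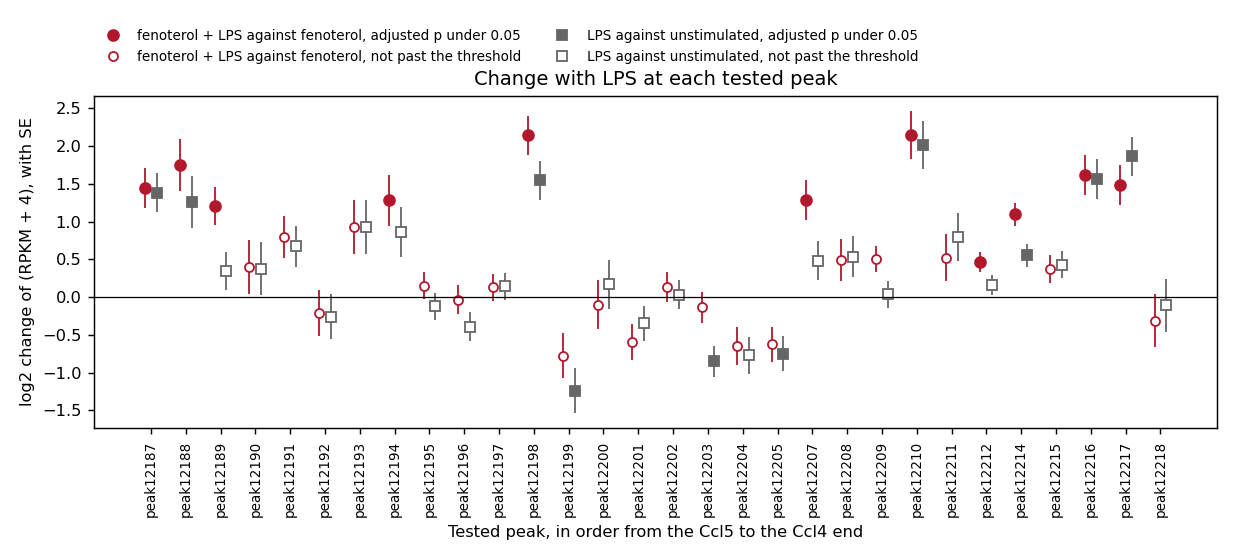
Log2 change with LPS of the 30 tested members (points, with SE bars; vertical axis, log2 of scaled RPKM + 4) in order from the Ccl5 to the Ccl4 end, for fenoterol + LPS against fenoterol (circles) and for LPS against unstimulated cells (squares); filled symbols passed the threshold. The calls with fenoterol are all above 0, and the 3 calls below 0 are all of LPS against unstimulated cells.

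With fenoterol present, 11 members rose with LPS and 0 fell by limma-trend, while 4 lower members had an unadjusted p under 0.05. In either direction 18 of the 30 tested members had such a p, and so did 17477 of all 66786 tested peaks. Over all tested peaks this comparison called 13.7%, 9.43% as higher and 4.32% as lower. After quantile normalization 11 members rose and 2 fell, in a fit that called 17% of all peaks, and voom called 13 higher and 1 lower, and 19.4% of all peaks. Without the fenoterol + LPS library of mouse 2, 7 members and 5.82% of all peaks passed. The 11 included all 7 members that rose with LPS alone. The comparisons share no library, but they share both mice. In both, the spread used for a peak came from all 8 libraries and was drawn toward the trend over all peaks. Besides peak12189 and peak12212, the additional 2 were peak12194 and peak12207. The member at 83383161 to 83383430 (peak12194) had 16.0 and 19.7 RPKM with fenoterol + LPS, 17.9 and 12.1 RPKM with LPS, 3.50 and 6.68 RPKM with fenoterol and 5.55 and 7.15 RPKM unstimulated. Its log2 change was 1.28 with fenoterol present (SE 0.33, adjusted p = 0.0125) and 0.86 without (SE 0.33, adjusted p = 0.108). The call was lost without either fenoterol + LPS library (adjusted p = 0.0683 and 0.154) or the fenoterol library of mouse 1 (0.136).

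Peak12207, at 83452564 to 83452883 on the Ccl5 side of Ccl3, had 26.9 and 35.8 RPKM with fenoterol + LPS, 14.2 and 21.2 RPKM with LPS, 8.85 and 12.1 RPKM with fenoterol and 14.0 and 9.04 RPKM unstimulated. It rose with LPS after fenoterol by a log2 change of 1.29 (SE 0.26, adjusted p = 0.00194), and its change with LPS alone was 0.48 (SE 0.26, adjusted p = 0.267). Without the fenoterol + LPS library of mouse 2 the first was 1.11 (adjusted p = 0.0709). Of the 3 members that fell with LPS alone, the log2 changes with fenoterol present were -0.78 (peak12199, adjusted p = 0.0932), -0.62 (peak12205, adjusted p = 0.0835) and -0.13 (peak12203, adjusted p = 0.747). Over the 30 members the median log2 change was 0.48, against -0.03 over all tested peaks.

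Whether fenoterol changed accessibility in LPS-treated cells was asked by setting fenoterol + LPS against LPS. No member passed the threshold, and neither did any of the 66786 tested peaks (0%) by limma-trend, 4447 of which had an unadjusted p under 0.05. The members' log2 differences ran from -0.72 to 0.71, and 2 of them had an unadjusted p under 0.05. The smallest was at peak12207, which was higher in both fenoterol + LPS libraries (log2 difference 0.71, SE 0.26, adjusted p = 0.599). The other was peak12210, beside the Ccl3 position, lower in both fenoterol + LPS libraries, at 17.8 ± 0.399 RPKM against 32.2 ± 5.16 RPKM with LPS (SD, n = 2 mice each; log2 difference -0.72, SE 0.32, adjusted p = 0.714). Limma voom on the recovered reads called that difference, at -0.83 (adjusted p = 0.0413), in a test that called 0.69% of all peaks, and with the mouse as a replicate block voom gave an adjusted p of 0.0523. Libraries did not overlap at 8 members higher with fenoterol + LPS and at 9 lower, against 20.7% and 20.9% of tested peaks.

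**Figure D4:**
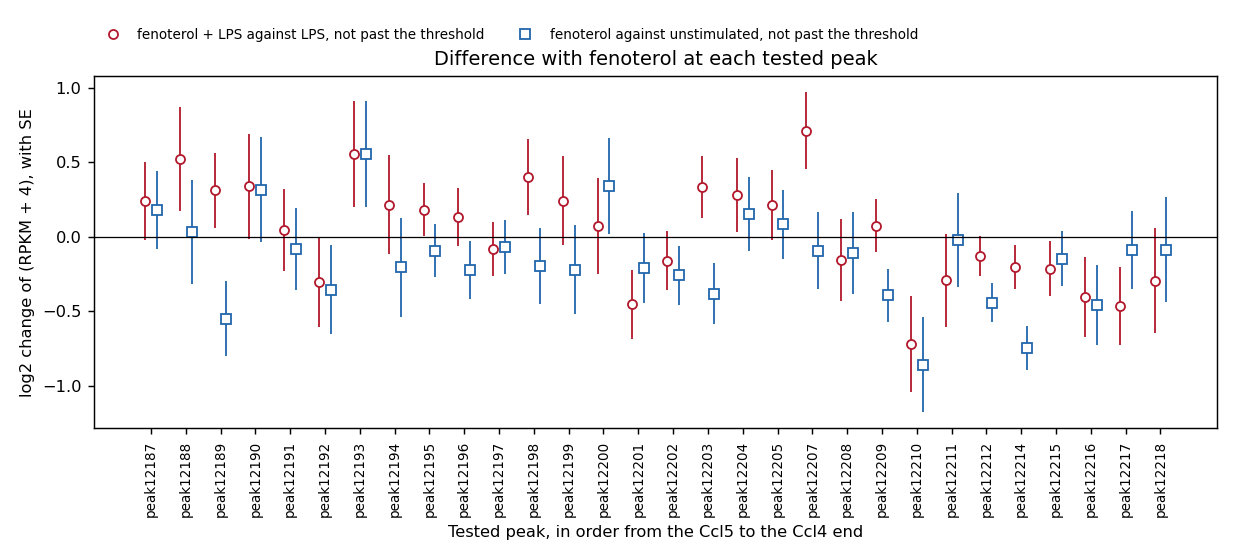
Log2 difference made by fenoterol at the 30 tested members (points, with SE bars; vertical axis, log2 of scaled RPKM + 4) in order from the Ccl5 to the Ccl4 end, for fenoterol + LPS against LPS (circles) and for fenoterol against unstimulated cells (squares). No member passed the threshold in either, and the points lie between -0.72 and 0.71 with LPS and between -0.86 and 0.55 without.

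Fenoterol alone, measured at 15 min, was set against unstimulated cells. No member passed the threshold by limma-trend or by voom, in a comparison where limma-trend called 5 of all tested peaks (0.00749%), with 4962 at an unadjusted p under 0.05. Of the members 23 were negative and 7 positive, against 35634 negative and 31152 positive of all tested peaks, and 5 had an unadjusted p under 0.05. The smallest was that of the Ccl4 peak, peak12214, with 21.0 ± 1.30 RPKM with fenoterol and 38.1 ± 6.17 RPKM unstimulated (SD, n = 2 mice each; log2 difference -0.75, SE 0.15, adjusted p = 0.156). Beside the Ccl3 position, peak12210 averaged 0.928 ± 0.317 RPKM with fenoterol and 4.93 ± 0.121 RPKM unstimulated (log2 difference -0.86, SE 0.32, adjusted p = 0.578), from 3 and 12 reads in all. Peak12212 had a log2 difference of -0.44 (SE 0.13, adjusted p = 0.459). Leaving out the unstimulated library of mouse 2 keeps only the shallow one of mouse 1 in that group, assumed to vary like the other groups. Peak12212 and peak12214 then passed as lower (adjusted p = 0.0309 and 0.0041), in a fit where 5.38% of all peaks passed. Libraries did not overlap at 8 members lower with fenoterol, against 17% of tested peaks, and at 1 higher, against 15.1%.

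Whether the change with LPS differed between cells with and without fenoterol was tested as an interaction. It also holds the additional 1 h after fenoterol, so an altered LPS response and time after fenoterol cannot be told apart. No member passed by limma-trend or by voom, nor did any tested peak by limma-trend (0%), with 4225 peaks at an unadjusted p under 0.05. The smallest p among members was again at Ccl4: peak12214 had an interaction of 0.54 (SE 0.21, adjusted p = 0.722), the excess of its LPS change of 1.10 with fenoterol over 0.55 without. Of the 30 members 22 had a positive and 8 a negative interaction, against 34884 and 31902 of all tested peaks, and 4 had an unadjusted p under 0.05.

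Summed over the window, reads per 1e6 reads in peaks were 330 and 358 with fenoterol + LPS, 340 and 352 with LPS, 200.4 and 249 with fenoterol and 244 and 280 unstimulated. The libraries with LPS exceeded those without, and within each LPS state the groups with and without fenoterol overlapped in their ranges.

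A pair of members under the filter on low values was not tested with the rest. The peak at 83469247 to 83469527 (peak12213), between Ccl3 and Ccl4, had 18.0 and 13.9 RPKM with fenoterol + LPS, 7.07 and 9.68 RPKM with LPS, 2.24 and 4.59 RPKM with fenoterol and 2.67 and 2.57 RPKM unstimulated. Its libraries with LPS lay above those without. With no filter its log2 change for fenoterol + LPS against fenoterol was 1.44 (adjusted p = 0.0125, limma-trend), in a fit that called 14.5% of all peaks. Its log2 difference for fenoterol + LPS against LPS was 0.69 in that fit, where 0% of all peaks passed. Its unstimulated values rest on 1 read, which is at the floor, and on 3 reads. The peak at 83444548 to 83444850 (peak12206) had 3.35 and 1.85 RPKM with fenoterol + LPS, 10.3 and 5.38 RPKM with LPS, 8.31 and 9.36 RPKM with fenoterol and 4.94 and 17.5 RPKM unstimulated. The member with the third highest mean, at 83453530 to 83454336 (peak12209), passed in no comparison, with 33.2 and 33.2 RPKM with fenoterol + LPS, 28.1 and 35.0 RPKM with LPS, 17.9 and 27.4 RPKM with fenoterol and 32.4 and 28.6 RPKM unstimulated. Its fenoterol libraries were the lowest, and its smallest adjusted p was 0.0635, for fenoterol + LPS against fenoterol. The remaining 15 tested members passed in no comparison. Their log2 changes ran from -0.77 to 0.92 with LPS and from -0.65 to 0.93 with LPS after fenoterol, and from -0.36 to 0.55 with fenoterol alone and from -0.46 to 0.56 for fenoterol + LPS against LPS.

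On either side of the window, a stretch of the same length held fewer peaks. The stretch before Ccl5 had 6 peaks, of which 5 were tested and 0 passed in any comparison. The stretch beyond Ccl4 had 8 peaks, all tested, of which 2 rose in both LPS comparisons. The peak at 83550584 to 83551184, 50584 bp past the window, had means of 36.3 RPKM with fenoterol + LPS, 37.6 RPKM with LPS, 11.9 RPKM with fenoterol and 14.9 RPKM unstimulated. No difference between the window and these stretches was tested.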

How the data were processed

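The authors deposited RPKM values, 1 for each peak in each library. The submitters' processing notes name cutadapt, Bowtie2, MACS2, HOMER and build mm9. Settings, any Tn5 shift and any removal of duplicates are not given in those sources. Multiplied by peak length, every value (100%) lay within 0.01 read of a whole number of reads, so reads in peaks were recovered, and 20 to 1598 peaks per library carried 1 read in place of none.

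Size factors from median ratios (0.940 to 1.037) scaled the values. The lowest 10% of peaks by mean were left out. Limma 3.58.1 in R 4.3.3 (limma-trend on log2 of the scaled value + 4) was fitted with 4 group means over all 8 libraries. This left 4 residual degrees of freedom per peak. The spread of each peak was drawn toward the trend of spread on the mean level over all peaks, which weighed as 16.4 degrees of freedom. SEs and p-values therefore rest more on that trend than on the peak's own libraries. The test was first tried on simulated reads of an assumed spread, with 200 peaks changed in the LPS group alone. That setting differs from these data, and no result here rests on it. Alternatives were limma voom on recovered reads, the mouse as a block, only the libraries compared, each library left out, no scaling, quantile normalization, a pseudocount of 0.8 or 20, a filter at 25% of peaks or none, and a fit without the mean trend.

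Mouse numbers pair libraries, since the labels give the same number to the same animal. Deviations of same-numbered libraries correlated at 0.0223 to 0.0713 across groups. Pairs of a group were distinct libraries and none were merged. Over peaks with at least 20 reads in a pair, their reads differed about as much as counting of reads alone would give. Chi-square per degree of freedom was 0.938 with fenoterol + LPS, 0.890 with LPS, 1.09 with fenoterol and 1.21 in unstimulated cells. The SDs given for n = 2 mice thus show little spread between animals beyond counting. The p-values rest on the same 2 mice in every group, and the fit as reported held no term for the mouse.

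Members, motifs and the genes named were chosen with earlier results of these data known. Members named with values are those past the threshold in any comparison, those nearest to the 3 gene positions, the 3 with the highest mean, and the one with the smallest p in each comparison without a call. The 2 untested members, peak12211, the steadiest ones and the flanking peak are shown in addition and were chosen after their values were seen. Marker and pathway gene lists, which need an mm9 annotation, were not used here.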

Additional observations from a re-analysis of the deposited data

How the results depend on the processing

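Of the 26 log2 changes of members that were followed through the alternatives (those past the threshold as reported or under an alternative, and the smallest p where a comparison had no call), 12 kept their direction and their side of the threshold in every alternative run (up to 19 each), 14 changed side in some, and 0 reversed. The 12 include peak12207 for fenoterol + LPS against LPS and the interaction at peak12214, which were never called. The 14 include peak12212 for fenoterol against unstimulated cells and peak12210 for fenoterol + LPS against LPS. Both were listed because an alternative called them, so their change of side was fixed in advance. The 10 calls of LPS against unstimulated cells became 4 to 9 when 1 library was left out, in fits that called 3.11% to 19.1% of all peaks, and 7 to 12 under the other settings. Calls of fenoterol + LPS against fenoterol, 11 as reported, ranged from 7 to 14 without 1 library, in fits that called 5.76% to 19.4% of all peaks, and reached 16 with only the libraries compared, where 18.4% of all peaks passed. Fenoterol against unstimulated cells gave 0 to 2 members without 1 library and 0 otherwise. Fenoterol + LPS against LPS gave 1 member, peak12210, by voom on recovered reads, and 0 in every other alternative. The interaction gave 0 in all alternatives run. Settings other than leaving out a library called 5.86% to 11.9% of all peaks for LPS against unstimulated cells. With the mouse as a replicate block, that comparison gave 12 members (8 higher and 4 lower), where 11.2% of all peaks passed. Fenoterol + LPS against fenoterol then gave 11, where 14.8% of all peaks passed, and the 3 other comparisons gave 0. The cause of these shifts was not tested. Depth was lowest in 1 library: the unstimulated library of mouse 1 held a median of 6 reads per member.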

Other observations

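At the Ccl3 to Ccl4 end of the window, from peak12210 on, fenoterol + LPS was lower than LPS at all 8 tested members, with a median log2 difference of -0.29. In the rest of the window 17 of 22 tested members were higher, with a median of 0.21. Of all 66786 tested peaks 34006 were lower and 32780 higher, with a median of -0.005. No member passed the threshold, the split was chosen after the values were seen, and neighbouring peaks of the same libraries are not independent, so it was not tested. The counts were the same on the values as deposited, after quantile normalization and by voom. The untested member of that end, peak12213, went the other way, with 18.0 and 13.9 RPKM with fenoterol + LPS and 7.07 and 9.68 RPKM with LPS. Fenoterol alone was lower than unstimulated at all 8 as reported and at 7 of 8 on the values as deposited. In the rest of the window 15 of 22 were lower.

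Likeness over the 8 libraries was measured by Pearson's r of log2 values among 30241 tested peaks outside the window with a mean of at least 20 RPKM. These values are a description of 8 libraries that differ mainly by LPS. Pearson's r leaves out the size of a change, and the highest values were picked from all these peaks. For the member nearest Ccl5 (peak12187) the most alike peaks were at 107802885 to 107803424 on chromosome 1, at 93631336 to 93631927 on chromosome 13 and at 167568026 to 167568360 on chromosome 2, each with r = 0.995. For the member nearest the Ccl3 position (peak12210) they were at 82801178 to 82801880 on chromosome 7 (r = 0.995), at 38157121 to 38157505 on chromosome 18 (r = 0.993) and at 115849120 to 115850194 on chromosome 4 (r = 0.9897). The chromosome 7 peak averaged 37.0 RPKM with fenoterol + LPS, 42.8 RPKM with LPS, 21.0 RPKM with fenoterol and 25.4 RPKM unstimulated. For the Ccl4 peak (peak12214) they were at 62205146 to 62205512 on chromosome 18 (r = 0.993), at 21126389 to 21126756 on chromosome 19 (r = 0.989) and at 145816732 to 145817237 on chromosome 3 (r = 0.983). The last of these averaged 72.8 RPKM with fenoterol + LPS, 82.3 RPKM with LPS, 45.6 RPKM with fenoterol and 61.6 RPKM unstimulated.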
